A study of Mus musculus with 2 samples.

Results

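The translation initiation factors (eIFs) and elongation factors (eEFs) were examined in control and TSA-treated Treg cells. All gene symbols that begin with Eif1 to Eif6 or with Eef1 or Eef2 were taken, pseudogenes excepted, which gave 64 genes of the 23282 rows in the table. The set holds the subunits of the factors and the regulators that share their names, such as the eIF2 kinases, the 4E-binding proteins and the kinase of eEF2. The rule used symbols only and no measured value. By symbol the genes fell into 15 of the eIF2 group, 14 of the eIF3 group, 16 of the eIF4 group, 9 of the eEF group and 10 genes named eIF1, eIF5 or eIF6.

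Naïve CD4+ T cells from the spleens of wild-type female C57BL/6 mice (7 to 10 weeks old) were activated with plate-bound anti-CD3ε and soluble anti-CD28 and kept for 1 day under Treg-inducing conditions. Both cultures received TGF-β1, IL-2 and antibodies that block IFN-γ and IL-4. The control culture received the solvent DMSO, and the other received 10 μM Tubastatin A (TSA), an inhibitor of the cytoplasmic deacetylase HDAC6. Whether cells of several mice were pooled is not given in the sources used here. RNA of 1 culture per condition was sequenced, so no difference below has a replicate check, no p-value was computed, and an effect of TSA cannot be told apart from any other difference between the cultures or the library preparations.

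Sequencing used the QuantSeq 3′ method, in which reads start near the poly(A) end of a transcript. A read therefore stands for a captured transcript whatever its length, and levels of different genes can be set side by side without a division by length. The reads on genes came to 10845868 for the control and 10432698 for TSA. A floor of 3 reads, in CPM (the share of reads on genes, scaled to a common total), was 0.277 for the control and 0.288 for TSA. The markers of CD4+ T cells and Treg cells were present in both libraries, with 2434 and 2549 reads of Cd4 and 1633 and 965 reads of Foxp3 (control and TSA). Of the markers of other cells, the 6 myeloid genes summed to 60 and 44 reads, the 5 B cell genes to 12 and 15, the 3 NK cell genes to 3 and 6, the 3 erythroid genes to 42 and 54, and the 2 CD8 genes to 80 and 87. Pax5 of the B cell list and Klrb1c of the NK cell list had 0 reads in both libraries. Hdac6, whose protein TSA inhibits, had 146 and 166 reads, and the ratio of the TSA level to the control level was 1.13 (0.896 to 1.42), which is no check of a treatment that acts on the protein. Such ratios, or their log2, are given on the scale of normalized count plus 1, with exact 95% intervals in parentheses, and where a pair of read numbers is given the control comes first.

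Translation starts when eIF2, carrying GTP and the initiator tRNA, joins the small ribosomal subunit together with eIF1, eIF1A, eIF3 and eIF5. The eIF4F complex, made of the cap-binding eIF4E, the scaffold eIF4G and the helicase eIF4A, brings the mRNA, and the large subunit joins with the help of eIF5B. The eEF1 complex then delivers aminoacyl-tRNA and eEF2 moves the ribosome along. In T cells, activation raises protein synthesis strongly before the first division, and kinases of the stress response and of the mTORC1 pathway control it through eIF2, the 4E-binding proteins and eEF2.

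Of the 64 genes, 60 had at least 10 reads in at least 1 library and were examined further. The other 4 were Eif4e1b, an oocyte form of eIF4E, and Eif2s3y, the Y-linked copy of eIF2γ, both at 0 reads in each library, Eef1a2, the eEF1A of muscle and neurons, at 0 and 1 reads, and Eif3j1 at 5 and 5 reads. The 64 genes together held 282642 control reads and 250213 TSA reads, or 2.61% of the control library (exact Clopper-Pearson 95% interval 2.60% to 2.62%) and 2.40% of the TSA library (2.39% to 2.41%). These intervals and all those below cover counting error only, since copies made by PCR cannot be told apart from other reads. The ratio of the TSA share to the control share was 0.920 for all 64 genes (0.915 to 0.925). It was 0.802 for the eIF1, eIF5 and eIF6 genes, 0.849 for the eIF2 group, 0.858 for the eIF4 group and 0.898 for the eIF3 group. The eEF group alone took a larger share of the TSA library, at 0.929% against 0.883%, a ratio of 1.05 (1.04 to 1.06). Shares are relative to total reads and weigh abundant genes most. On the total-read scale, the median log2 fold change of all genes tested was 0.085. Within the eEF group, Eef1a1 went from 0.240% of the control library to 0.286% of the TSA library. Eef2 went from 0.317% to 0.316%, and the eEF1B genes together from 0.308% to 0.310%. Fewer cells that hold a transcript and fewer transcripts per cell cannot be told apart in such bulk samples.

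**Figure D1:**
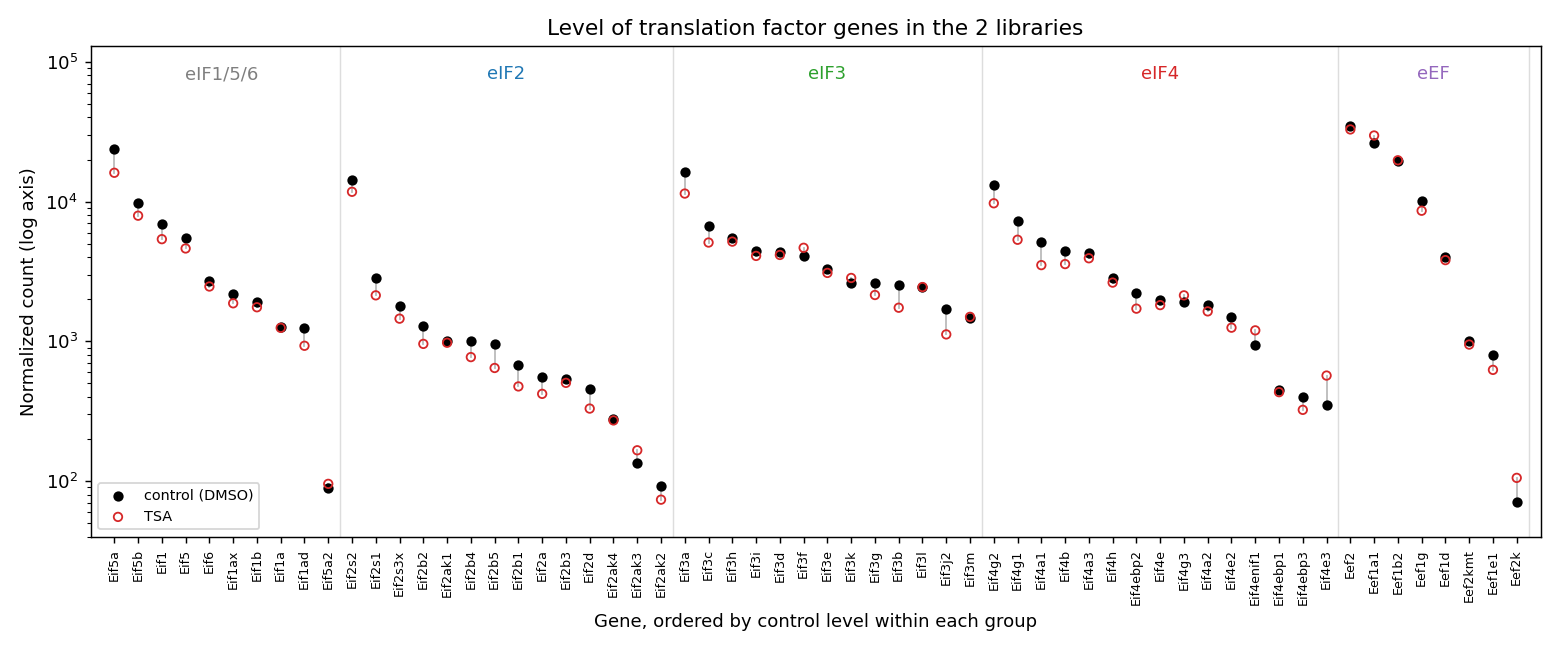
Normalized count (log axis) of the 60 genes with at least 10 reads in 1 library, ordered by control level within each group, with filled points for the control library, open red points for the TSA library and a grey line joining the 2 values of a gene. Eef2k, Eif5a2 and Eif2ak2 are lowest and Eef2 is highest, and most open points lie at or below their filled point.

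The levels of these genes spread widely. Eef2, the translocase, was the 13th most abundant gene of the control library with 3167 CPM, and Eef1a1, which delivers aminoacyl-tRNA, was the 24th with 2401 CPM. Eif5a, the factor that carries the modified lysine hypusine, was the 28th with 2196 CPM. At the other end, Eif2ak2 stood at 8.48 CPM, Eif5a2 at 8.21 and Eef2k at 6.55. The median control level of the 60 genes was 202 CPM, against 21.9 for all 12164 genes tested. Counting error is therefore small for most of their fold changes, while variation between cultures was not measured.

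No translation factor gene differed by 2-fold, the size the study's methods use, in either direction, although 14.7% of all genes tested did, 11.5% higher and 3.15% lower. At 1.5-fold, 1 gene was higher (Eif4e3) and 1 lower (Eif3j2), against 18.7% and 8.34% of all genes tested, or 27.1% in both directions. At a ratio of 0.8 or its reciprocal, 3 genes were higher (Eif4e3, Eef2k and Eif4enif1) and 20 were lower, where all genes tested gave 28.2% higher and 20.1% lower.

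Large differences were rare at the expression level of these genes. Mean normalized counts reached 1000 for 43 of the 60, and of all genes at that level 0.783% differed by 2-fold, 0.184% higher and 0.599% lower. At 1.5-fold, 1 of the 43 was lower and 0 were higher, against 3.78% and 0.921% of all genes at that level, or 4.70% in both directions. At a ratio of 0.8 or its reciprocal, 13 of the 43 were lower and 1 was higher, against 20.9% and 4.61%.

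The differences were small and mostly in 1 direction. The median log2 fold change of the 60 genes was -0.18, and 48 of them were lower in the TSA library, against 48.6% of all genes tested, whose median was 0.015. Genes of high expression tended to be lower in general, with a median of -0.12 over the 2171 genes that averaged 1000 normalized counts or more, and the 43 translation factor genes at that level had a median of -0.22. At that level 69.4% of all genes and 35 of the 43 were lower. The exact 95% interval of the fold change lay wholly below 1 for 41 of the 60 genes and wholly above 1 for 7, against 28.0% and 28.1% of all genes tested. Among genes that averaged 1000 or more, it lay below 1 for 34 of 43 genes and above 1 for 5, where all genes of that level gave 54.9% and 20.7%.

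**Figure D2:**
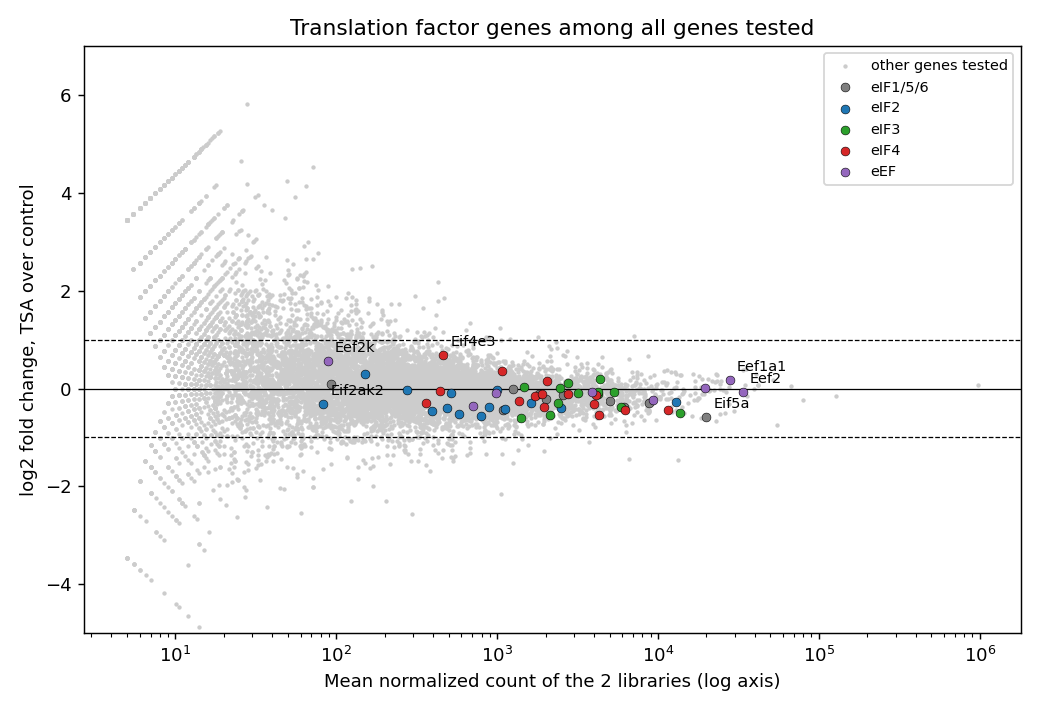
Log2 fold change (TSA over control) of all 12164 genes tested against their mean normalized count (log axis), with the translation factor genes coloured by group and dashed lines at 2-fold. All coloured points lie between the dashed lines, and most of them lie at high counts and below 0.

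The 4 groups named by the symbols differed in their medians. The eIF2 group had a median log2 fold change of -0.35 over 14 genes, the eIF4 group of -0.15 over 15, the eIF3 group of -0.086 over 13 and the eEF group of -0.069 over 8. The 10 eIF1, eIF5 and eIF6 genes had a median of -0.23. The median of the eIF2 group differed from that of the eEF group by -0.28 on the log2 scale, from that of the eIF3 group by -0.26 and from that of the eIF4 group by -0.20. The medians of the eIF3 and eEF groups were close, with a difference of -0.017. Without the genes whose transcript end matches another gene, the eIF4 median was -0.25, below the -0.23 of the eIF1, eIF5 and eIF6 genes, and the eIF2 median differed from it by -0.13. All 5 medians were below 0 as deposited and under every other scaling tried, except that the eEF median was 0.0015 with scaling to total reads. That scaling also brought the eIF3 median to -0.016 and the median of the 60 genes to -0.11, while the median of all genes tested became 0.085. Genes of a group share the same 2 libraries and are not replicates, so these differences were not tested.

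**Figure D3:**
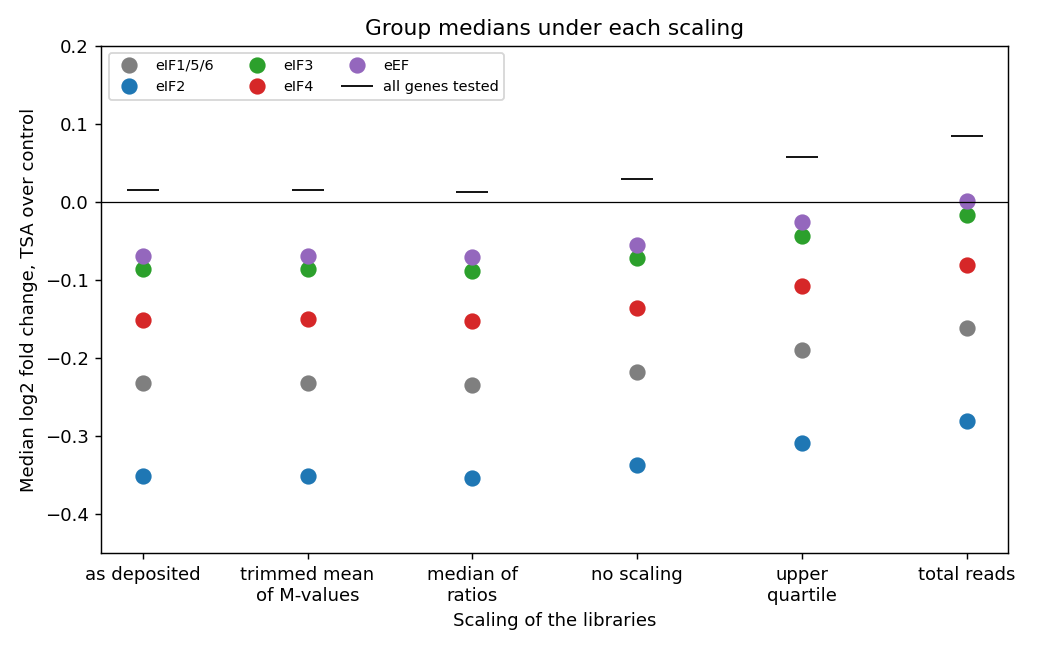
Median log2 fold change (TSA over control) of each group under 6 scalings of the libraries, with a black bar for the median of all genes tested. The order of the groups is the same under each scaling, with eIF2 lowest, and the eEF median reaches 0.0015 with total reads.

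The subunits of eIF2 itself were all lower in the TSA library. Eif2s1, which encodes the α subunit that the stress kinases phosphorylate, had 2810 control reads and 2144 TSA reads, a ratio of 0.756 (95% interval 0.714 to 0.799). Eif2s2, the β subunit and the most abundant gene of the group, had 14221 and 11812 reads, a ratio of 0.822 (0.803 to 0.843). Eif2s3x, the X-linked γ subunit, had 1780 and 1460 reads, a ratio of 0.812 (0.757 to 0.871). The interval of Eif2s3x overlapped those of the other 2 subunits, and those of Eif2s1 and Eif2s2 did not overlap.

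The complex eIF2B reloads eIF2 with GTP and is blocked by phosphorylated eIF2. Of its 5 subunit genes, 4 were lower with intervals below 1, against 28.0% of all genes tested. Among all genes that averaged 1000 normalized counts or more, a level Eif2b2 alone of the 5 reached, the share was 54.9%. Eif2b5, the catalytic ε subunit, was the lowest with 947 and 648 reads, a ratio of 0.678 (0.612 to 0.750). Eif2b1 had 677 and 478 reads, a ratio of 0.700, Eif2b2 had 1281 and 964, a ratio of 0.745, and Eif2b4 had 997 and 775, a ratio of 0.770. Eif2b3, the γ subunit, was the highest, with 532 and 507 reads and an interval of 0.834 to 1.07 that includes no change. Eif2a and Eif2d, which encode factors that can bring initiator tRNA without eIF2, were also lower, with ratios of 0.759 (552 and 423 reads) and 0.726 (453 and 332 reads).

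The kinases that phosphorylate eIF2α had a median log2 fold change of -0.040. Eif2ak1, the heme-regulated kinase, had 1000 and 982 reads, and Eif2ak4, the amino acid sensor GCN2, had 278 and 273 reads, with the same ratio of 0.973. Eif2ak3, the endoplasmic reticulum kinase PERK, had 135 and 167 reads, a ratio of 1.22 (0.970 to 1.55), and was the third highest gene among those that averaged 100 normalized counts or more. Eif2ak2, the double-stranded RNA sensor PKR, had 92 and 74 reads, a ratio of 0.799 (0.578 to 1.09). All 4 intervals included no change. Without the kinases, the 10 remaining eIF2 genes had a median log2 fold change of -0.40, and all 10 were lower, against 48.6% of all genes tested. Of all genes that averaged 1000 normalized counts or more, a level some of the 10 reached, 69.4% were lower.

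The eIF3 complex is the largest initiation factor and holds the small ribosomal subunit. Its subunits ranged from a log2 fold change of -0.59 to 0.19 and differed from one another by more than counting error. Eif3a, the largest subunit, had 16099 and 11473 reads, a ratio of 0.706 (0.689 to 0.723). Eif3b had 2524 and 1749 reads, a ratio of 0.686 (0.645 to 0.730), and Eif3c had 6620 and 5120 reads, a ratio of 0.766 (0.738 to 0.794). These genes encode the part of eIF3 that is conserved in budding yeast, together with Eif3g (2618 and 2156 reads, ratio 0.816) and Eif3i (4373 and 4107 reads, ratio 0.930). All 5 had intervals below 1, as did 54.9% of all genes that averaged 1000 normalized counts or more, a level all 5 reached, and their median log2 fold change was -0.39.

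The other 7 subunits of the complex, d, e, f, h, k, l and m, had a median log2 fold change of 0.0030. This grouping was made after the values were seen. Eif3f was the highest of the eIF3 genes with 4063 and 4695 reads, a ratio of 1.14 (1.10 to 1.19), and Eif3k followed with 2623 and 2856 reads and a log2 fold change of 0.11, its interval also above 1. Eif3l and Eif3m, with log2 fold changes of 0.0030 and 0.036, had intervals that included no change. Eif3d, Eif3e and Eif3h were slightly lower, with ratios between 0.942 and 0.949. The lowest gene of the eIF3 group and of the whole set was Eif3j2, which encodes the loosely bound j subunit, with 1682 and 1127 reads and a ratio of 0.663 (0.615 to 0.716). The end of its transcript is at least 95% identical to part of an Eif3j1 transcript over a read length, so that its reads may come from either gene.

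Within the cap-binding complex, the main scaffold and helicase genes were lower while the cap-binding subunit itself was closer to 1. Eif4e had 1958 and 1826 reads, a ratio of 0.923 (0.866 to 0.985), though its transcript end matches 2 pseudogenes and its reads may be shared with them. Eif4g1, the main scaffold, had 7179 and 5359 reads, a ratio of 0.739 (0.713 to 0.766). Eif4a1, the main helicase, had 5101 and 3528 reads, a ratio of 0.685 (0.656 to 0.715), the lowest of the eIF4 group. Eif4g2, the scaffold DAP5 that does not bind eIF4E, had 13131 and 9775 reads, a ratio of 0.737 (0.718 to 0.757).

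Eif4g3 and Eif4a2, paralogs of Eif4g1 and Eif4a1, had higher ratios than these. Eif4g3 had 1916 and 2144 reads, a ratio of 1.11 (1.04 to 1.18), so that Eif4g1 took 78.9% of the reads of the pair for the control (exact interval 78.1% to 79.8%) and 71.4% for TSA (70.4% to 72.4%). Eif4a2 had 1810 and 1647 reads, a ratio of 0.901, and the share of Eif4a1 in that pair went from 73.8% (72.8% to 74.8%) to 68.2% (66.9% to 69.4%). Eif4a3, the helicase of the exon junction complex, had a ratio of 0.913 (4283 and 3950 reads).

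Eif4e3, an atypical cap-binding paralog, was the highest gene of the set. It had 350 control reads and 572 TSA reads, a ratio of 1.62 (1.41 to 1.85). Its reads relative to Eif4e grew with it, and Eif4e took 84.8% (83.3% to 86.3%) of the reads of the pair for the control and 76.1% (74.4% to 77.8%) for TSA. Eif4e2, the repressive cap-binding protein 4EHP, was lower with 1483 and 1259 reads, a ratio of 0.841. In each of these pairs, the intervals of the 2 shares did not overlap, and a ratio of genes within a library does not depend on the scaling. The reads of Eif4e and Eif4a2 may be shared with pseudogenes that match their transcript ends, which the shares do not take into account.

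Of the helicase cofactors, Eif4b had 4407 and 3590 reads, a ratio of 0.807 (0.772 to 0.843), and Eif4h had 2831 and 2646 reads, a ratio of 0.925. The inhibitors of eIF4E were not uniform. Eif4ebp1, the 4E-binding protein best known as an mTORC1 substrate, had 445 and 435 reads, a ratio of 0.968 (0.846 to 1.11). Eif4ebp2, the most abundant of the 3 at these levels, had 2209 and 1722 reads, a ratio of 0.772 (0.724 to 0.822), and Eif4ebp3 had 395 and 325 reads, a ratio of 0.816 (0.701 to 0.946). Eif4enif1, whose product carries eIF4E into the nucleus and acts in processing bodies, was higher with 934 and 1204 reads, a ratio of 1.28 (1.17 to 1.39).

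**Figure D4:**
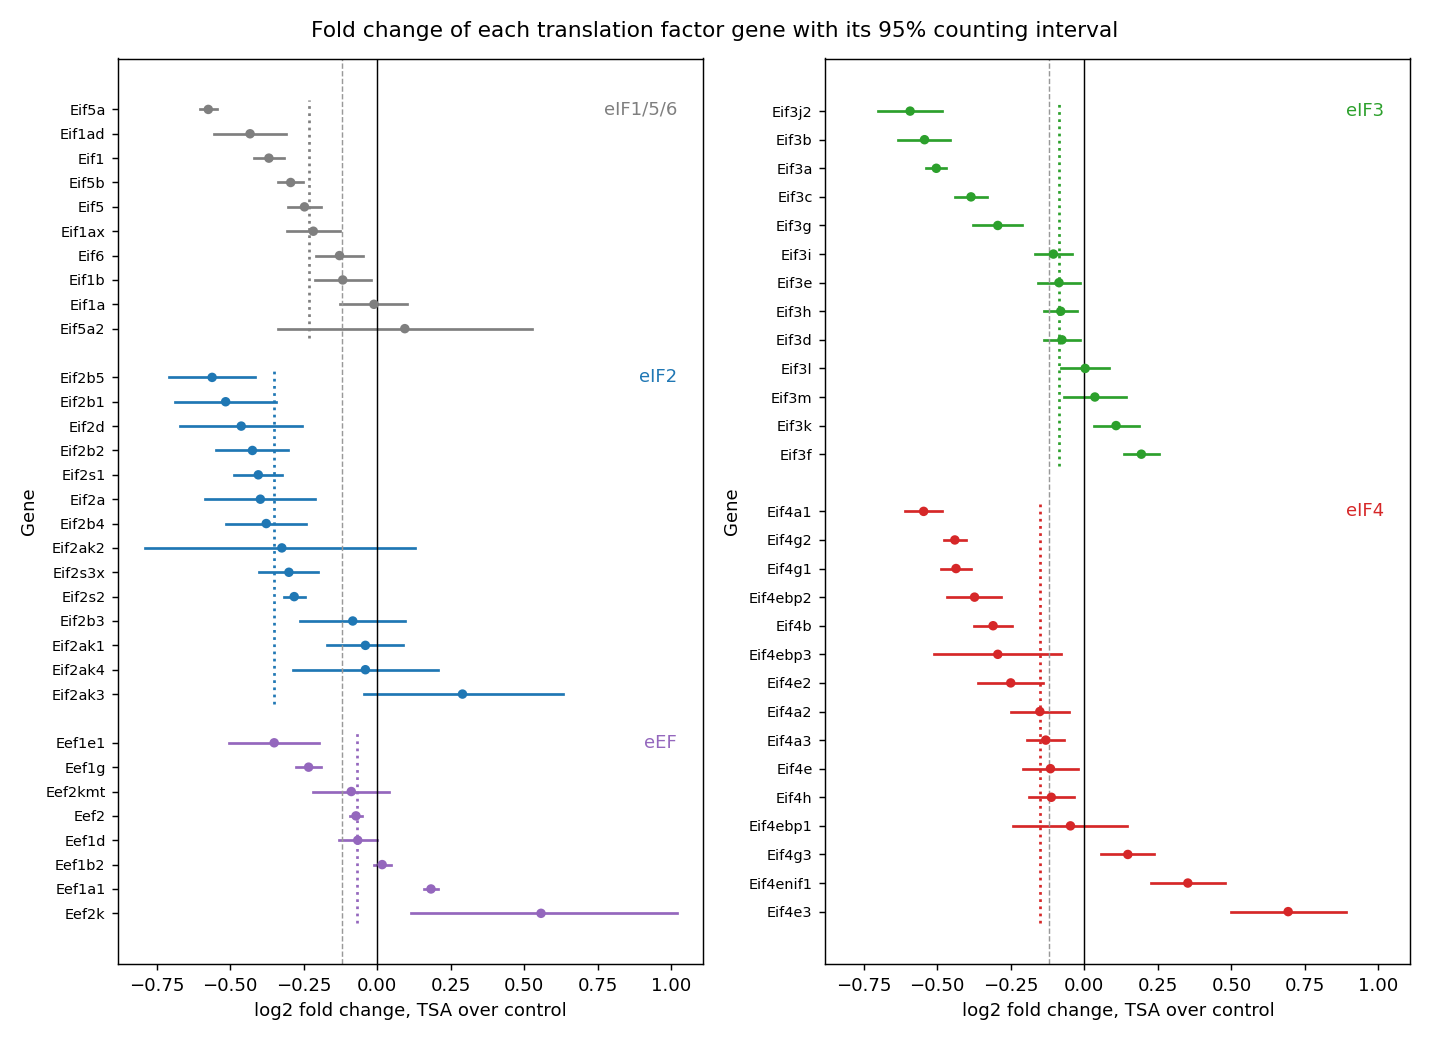
Log2 fold change (TSA over control) of each of the 60 genes (points) with its exact 95% counting interval (bars), by group, with dotted lines at the group medians and a grey dashed line at the median of -0.12 for all genes that averaged 1000 normalized counts or more. Most eIF2 genes lie left of the dashed line, the eIF3 genes run from -0.59 for Eif3j2 to 0.19 for Eif3f, and Eif4e3 and Eef2k lie farthest right.

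Among the eIF1, eIF5 and eIF6 genes, Eif5a was the lowest and was the second lowest of the set. It had 23818 control reads and 16158 TSA reads, a ratio of 0.672 (0.658 to 0.685). Its paralog Eif5a2 had 89 and 96 reads, and its interval of 0.792 to 1.44 included no change. Eif5a2 was also the highest gene of these 10. Eif1, which guards start codon choice, had 6915 and 5412 reads, a ratio of 0.775, Eif5, the GTPase activator of eIF2, had 5456 and 4643, a ratio of 0.843, and Eif5b, the GTPase of subunit joining, had 9672 and 7967, a ratio of 0.816. Eif1ad, which encodes a small protein with an eIF1A domain, had 1248 and 934 reads, a ratio of 0.741. The eIF1A genes Eif1a and Eif1ax had ratios of 0.992 and 0.860, Eif1b of 0.922 and Eif6, which keeps the large subunit from joining too early, of 0.915. Of the 10 genes, 9 had ratios below 1, against 48.6% of all genes tested and 69.4% of those that averaged 1000 normalized counts or more.

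The elongation factors held the highest levels, and their median was the closest of the 5 to 0. Eef2 had 34344 and 32997 reads, a ratio of 0.951 (0.937 to 0.966). Eef1a1 was higher, with 26046 and 29862 reads, a ratio of 1.14 (1.12 to 1.15). Its transcript end matches 3 other annotated genes, none of them protein-coding or a pseudogene, and its reads may be shared with them. Of the eEF1B complex, which reloads eEF1A with GTP, Eef1b2 was the highest with 19426 and 19852 reads and an interval of 0.992 to 1.03, and Eef1g was the lowest with 10062 and 8647 reads, a ratio of 0.851 (0.827 to 0.876). Eef1d had 3971 and 3832 reads, a ratio of 0.955, and its log2 fold change of -0.066 became 0.0046 with total-read scaling. Eef1e1, whose product is part of the multisynthetase complex and not of eEF1 itself, had 793 and 628 reads, a ratio of 0.785.

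Eef2k, the kinase that inhibits eEF2, had few reads, 71 control and 106 TSA, a ratio of 1.47 (1.08 to 2.03). Its log2 fold change of 0.56 was the second highest of the 60 genes, though its mean level was below 100 normalized counts. Eef2kmt, the methyltransferase of eEF2, had 1003 and 953 reads, with an interval of 0.860 to 1.03. Taken by kind, the 12 genes that do not encode subunits of the factors (the eIF2 kinases, the 4E-binding proteins, Eif4enif1, Eef2k, Eef2kmt, Eef1e1 and Eif1ad) had a log2 median of -0.068, with 2 intervals above 1 and 4 below, and the 48 subunits had a median of -0.23, with 5 above and 37 below. Of all genes tested, 28.1% had intervals above 1 and 28.0% below, and the count below among the 12, which were Eif4ebp2, Eif4ebp3, Eef1e1 and Eif1ad, was near that share. Of all genes that averaged 1000 normalized counts or more, a level most of the subunits reached, 20.7% had intervals above 1 and 54.9% below.

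In the GRCm38 annotation of GENCODE M21, which is of the build mm10 named in the submitters' processing notes, all 64 are listed. Eif5a lies on chromosome 11 from 69916714 to 69921958 and Eif4a1 on the same chromosome from 69666936 to 69672423. Eif4e3 lies on chromosome 6 from 99625135 to 99666771 and Eef2k on chromosome 7 from 120842831 to 120907450. Eif2b5 lies on chromosome 16 from 20498817 to 20509323 and Eif4g1, which is close to it, from 20668313 to 20692884. Eif3f lies on chromosome 7 from 108934417 to 108942951 and Eif3a on chromosome 19 from 60761117 to 60790658. The last 300 bases of the transcripts of 11 of the 60 genes matched a transcript of another gene at 95% identity or more over at least 75 bases, Eef1a1, Eef1b2, Eef1d, Eif2s3x, Eif3h, Eif3j2, Eif3m, Eif4a2, Eif4a3, Eif4e and Eif4ebp3, and their reads may be split or shared with that gene. The match can be a copy elsewhere or an overlapping gene, as Naprt is for Eef1d.

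Many mRNAs of the translation machinery begin with a C and a run of pyrimidines, the terminal oligopyrimidine start through which mTORC1 controls their translation. In the RefSeq promoter table (GRCm38.p6), a start at C followed by at least 4 bases that are each C or T was found for 2 of 47 translation factor genes tested and for 3.08% of the 9196 genes tested that have an entry, and for 2.51% of all 32851 promoter windows. In GENCODE M21 the first base of each transcript was read instead, and a gene counted if any of its transcripts had such a start. It was found for 9 of the 60 genes, against 5.70% of 11096 genes tested. The RefSeq and GENCODE counts differ in annotation, in the starts read per gene and in the genes covered, and these were not separated. The 9 had a median log2 fold change of -0.15 and the others of -0.22. In the RefSeq table the 2 genes were Eif3f, the highest of the eIF3 genes, and Eif2s3x, which was lower. Their annotated starts are shown with those of Eef1a1 and Eef2, the most abundant elongation factor genes. Each line gives 15 bases before the start and 15 bases from the start on. Where the annotated base is a C followed by at least 4 pyrimidines, the pyrimidines from that base on are in capitals. In Eif3f, Eif2s3x and Eef1a1 the run of pyrimidines also extends before the annotated base. Eef1a1 has no capitals, since its annotated base is a T.
Eif3f, plus strand, chr7:108934400-108934429: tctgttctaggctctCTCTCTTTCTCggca
Eif2s3x, minus strand, chrX:94212637-94212666: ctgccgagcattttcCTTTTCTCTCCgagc
Eef1a1, minus strand, chr9:78481710-78481739: gctggctccgccctcttcccgagggtgggg
Eef2, plus strand, chr10:81176616-81176645: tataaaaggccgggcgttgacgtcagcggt
The mRNAs of Eef1a1 and Eef2 are known to begin with such a run, and an annotated start can be off by some bases, so that a start without it says only that these letters are not at this position.

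The E-box CACGTG, which reads the same on both strands and is the kind of site bound by Myc and related factors, occurs in the window of 250 bases before to 50 bases after the start in 12 of the 47 genes (25.5%), against 1108 of the 9196 genes and 7.15% of all promoter windows. The ETS site CCGGAAGT, or ACTTCCGG on the other strand, was found in 9 of the 47 (19.1%), against 9.45% and 3.89%. The 12 genes with the E-box had a median of -0.11 (log2) and the others of -0.29, while all genes with and without the E-box had medians of -0.014 and 0.015. The 9 genes with the ETS site had a median of -0.076 and the others of -0.29, while over all genes the order was the opposite, with -0.087 for those with the site and 0.024 for those without. The E-box of the 3 lowest and the 3 highest of the 12 genes is shown in capitals with its flanks, because genes at both ends of the range carry it.
Eif5a, minus strand, chr11:69921443-69921472: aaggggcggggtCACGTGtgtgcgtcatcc
Eif4a1, minus strand, chr11:69672595-69672624: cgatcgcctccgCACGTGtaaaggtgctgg
Eif3a, minus strand, chr19:60790654-60790683: ccgcgagggaatCACGTGgttccttccttt
Eif3k, minus strand, chr7:28981915-28981944: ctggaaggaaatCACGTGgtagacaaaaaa
Eif3f, plus strand, chr7:108934335-108934364: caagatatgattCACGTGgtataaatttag
Eef2k, plus strand, chr7:120842788-120842817: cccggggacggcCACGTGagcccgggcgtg
The site of Eif3k begins 44 bases before the RefSeq start and that of Eif3f 68 bases before. That of Eif3a lies within the transcript by its RefSeq start but outside the gene as GENCODE M21 places it. Myc itself had 1312 and 1170 reads, a ratio of 0.883.

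Other genes of the pathway were taken from lists of known partners. Of 17 genes for partners of the cap, the poly(A) tail and scanning, 9 had intervals below 1 and 3 above, against 28.0% and 28.1% of all genes tested. Some of the 17, such as Pabpc1, averaged 1000 normalized counts or more, where all genes gave 54.9% and 20.7%. The median log2 fold change of the 17 was -0.18, against 0.015 for all genes tested and -0.12 for those of that level. Pabpc1, the main poly(A)-binding protein, had 28462 and 19949 reads, a ratio of 0.694 (0.682 to 0.707). The lowest of the list were Angel1 (38 and 10 reads, ratio 0.279) and Dhx29, a scanning helicase (168 and 63 reads, ratio 0.375), the 2 genes of the list lower by more than 2-fold, as were 3.15% of all genes tested. The highest were Mcts1, a reinitiation factor (950 and 1128 reads, ratio 1.18), and Paip2, an inhibitor of the poly(A)-binding protein (1422 and 1687 reads, ratio 1.17).

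The 12 genes of the response to phosphorylated eIF2 had a log2 median of -0.21, against 0.015 for all genes tested, with 5 intervals below 1 and 1 above, against 28.0% and 28.1%. Atf4, whose translation is raised when eIF2 is phosphorylated, had 5017 and 3322 reads, a ratio of 0.656 (0.627 to 0.685). The lowest were Sesn2 (19 and 3 reads, ratio 0.198, interval 0.0296 to 0.531) and Atf5 (112 and 55 reads, ratio 0.491), the 2 of the list lower by more than 2-fold (3.15% of all genes tested). The highest were Gadd45a, past 2-fold on few reads (5 and 13 reads, interval 0.861 to 9.22) and Chac1 (7 and 13 reads, interval 0.682 to 5.44), and Atf3 had 104 and 166 reads, a ratio of 1.58 (1.23 to 2.04).

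Of 16 genes of mTORC1 and MNK signalling, 5 had intervals below 1 and 3 above, where all genes tested gave 28.0% and 28.1%, so that the count below 1 was near that of all genes. The median log2 fold change was -0.077, against 0.015. Mlst8, a subunit of mTORC1, was the lowest with 364 and 240 reads, a ratio of 0.654 (0.552 to 0.771), and Rps6kb1, the S6 kinase that phosphorylates eIF4B, followed with 1306 and 1072 reads, a ratio of 0.813 (0.749 to 0.882). The highest was Deptor, an inhibitor of mTOR, with 54 and 127 reads, a ratio of 2.30 (1.68 to 3.26), the gene of this list past 2-fold (11.5% of all genes tested were higher by that much). Rps6kb2 came next with 9 and 18 reads, and its interval included no change.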

How the data were processed

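QuantSeq libraries were sequenced by the authors from one end and processed in the ExDEGA program. The submitters' processing notes name mm10, Bowtie2 and bedtools. The scaling method is not given in the sources used here. The deposited values are log2 of a normalized count plus 1, as found from the values: with the log2 undone, small values fell on multiples of 1.005 (control) and 0.9951 (TSA). Of genes with 1 to 300 reads, 99.7% and 99.9% were within 0.1 of a whole read. Subtracting the deposited control value from the TSA value gave the log2 fold change, and 2 to that power the ratio. Reads were recovered by rounding and used for exact Clopper-Pearson 95% intervals. Genes with at least 10 reads in 1 library were tested (12164). With 1 library per condition no p-value was computed.

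All genes found by the symbol rule were counted. Genes named with values are those past 2-fold, the 3 highest and 3 lowest that averaged 100 normalized counts or more, the subunits of eIF2, eIF4F, eEF1A and eEF2, the eIF2 kinases, the 4E-binding proteins, Eef2k, and the lowest and highest of each other group. Other genes were named after their values were seen. The genes and lists were chosen with earlier results of these data known, and the level of 1000 normalized counts was chosen after the data were seen. The alternatives were 5 scalings, pseudocounts of 0.1 and 5, other filters, other thresholds and other members. Transcript ends were compared with blastn 2.17.0. The steps were tested on simulated data with 200 genes changed by 2-fold: intervals held the true fold for 95.3% of 11819 genes. Python 3.11.15, numpy 2.4.6, scipy 1.17.1 and pandas 2.3.3 were used.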

Additional observations from a re-analysis of the deposited data

How the results depend on the processing

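No paired analysis was possible because each condition had a single library, which also meant that none could be omitted. The trimmed mean of M-values and the median of ratios left the medians of all groups nearly as deposited. Total-read scaling moved all genes up, with a median over all genes tested of 0.085, and gave a median of -0.11 over the 60 genes, an eIF4 median of -0.080, an eIF3 median of -0.016, an eEF median of 0.0015 and a log2 fold change of 0.0046 for Eef1d. Upper-quartile scaling gave an eIF3 median of -0.044 and an eEF median of -0.026. Without the genes whose transcript end matches another gene, the eIF4 median was -0.25, and differences between groups moved: eIF2 minus eIF4 to -0.13, eIF3 minus eIF4 to 0.15 (from 0.065), eIF3 minus eEF to -0.0075 (from -0.017) and eIF4 minus eEF to -0.16 (from -0.082). In place of 0 higher and 0 lower genes at 2-fold, 1.5-fold gave 1 and 1, a ratio of 0.8 or its reciprocal gave 3 and 20, and intervals that exclude no change gave 7 and 41. Without Rn45s, the ribosomal RNA precursor, in the total, the genes took 2.86% of the control library and 2.65% of the TSA library. Over all scalings, 43 genes were lower, 12 higher and 5 changed sign (Eef1d, Eif1a, Eif2ak1, Eif2ak4 and Eif4ebp1). The genes with few reads, Eif2ak2, Eif5a2 and Eef2k, had the widest intervals.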

Other observations

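Genes that end translation or modify the factors were also listed. Of 11 genes for termination, recycling and rescue of ribosomes, 6 had intervals below 1 and 1 above, against 28.0% and 28.1% of all 12164 genes tested. Some of the 11, such as Etf1, averaged 1000 normalized counts or more, where all genes gave 54.9% and 20.7%. The median log2 fold change of the 11 was -0.13, against 0.015 for all genes tested and -0.12 for those of that level. The lowest were Gspt2 (180 control reads and 123 TSA reads, ratio 0.678) and Etf1, the release factor eRF1 (3273 and 2286 reads, ratio 0.692). The highest were Gtpbp2, a ribosome rescue factor (151 and 270 reads, ratio 1.77, interval 1.45 to 2.18), and Hbs1l (325 and 364 reads, interval 0.952 to 1.29).

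Of 12 genes that make hypusine on eIF5A, the spermidine it needs, or diphthamide on eEF2, 4 had intervals below 1 and 1 above, where the count below is near the 28.0% of all genes tested and 28.1% were above. The median log2 fold change was -0.13. The lowest were Odc1 and Srm, which make putrescine and spermidine, both with a ratio of 0.687 (2376 and 1648 reads, and 5831 and 4044 reads), close to the value of 0.672 for Eif5a. Dohh, the last enzyme of hypusine synthesis, had 1273 and 1048 reads, a ratio of 0.816 (0.750 to 0.885), while Dhps, the first, had 588 and 563 reads and an interval of 0.843 to 1.07. The highest were Dph6, of the diphthamide pathway (636 and 742 reads, ratio 1.16), and Dph3 (84 and 81 reads, interval 0.695 to 1.31).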
